A study of Mus musculus with 12 samples.

Results

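Skin from bleomycin-treated and PBS-treated wild-type (WT) mice was compared by bulk RNA-Seq, over all genes. These libraries, 3 WT PBS mice (159, 160 and 161) and 3 WT BLM mice (145, 146 and 147), are 6 of the 12 in the series. The other 6 are libraries labelled Thy-1–KO, for knockout of the Thy1 gene, under the same 2 treatments (3 PBS, 3 BLM). They are called KO after that label, and Thy1 counts were present in all 6 of them, as given with Thy1 below. Each library is 1 mouse, chosen here by the genotype and treatment in its title. All mice were on the C57BL/6 background, the WT animals being bought or littermates of the knockouts, and female sex and an age of 8 to 12 weeks are stated for the knockouts only. Bleomycin was injected under the dorsal skin daily at 10 mg/kg for up to 14 days at 2 spots, PBS serving as the vehicle, and skin was taken on day 21. The deposited labels give 21 days of treatment. The WT groups therefore differ by bleomycin alone as far as the labels go, and they carry no engineered allele.

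Bleomycin is an anticancer drug that breaks DNA, and repeated injection into mouse skin is a standard model of the skin fibrosis of systemic sclerosis. In that disease fibroblasts turn into contractile myofibroblasts and lay down crosslinked collagen under signals such as TGF-β, macrophages and other leukocytes enter the dermis, and interferon-stimulated genes are often raised. Mouse back skin also passes through cycles of hair growth and rest, and growing follicles bring their own dividing matrix cells, pigment cells and shaft keratins. All of these cell types contribute RNA to a piece of skin, and in such bulk samples fewer cells of a type and less RNA per cell cannot be told apart.

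Between 26473700 and 38890450 counts per WT mouse were available, for 55453 genes, of which 18311 had enough counts to be tested. Pairs of WT PBS mice differed by a root mean square of 0.443 to 0.506 on the log2 scale, WT BLM pairs by 0.586 to 0.788, and mice of different treatment by 1.41 to 1.63. The defining markers of keratinocytes (Krt5, Krt14), fibroblasts (Col1a1, Col1a2), endothelium (Pecam1, Cdh5) and macrophages (Csf1r, Cd68) were present in all 6 WT mice. Skeletal muscle markers were also present in all of them, Ckm being at 616, 534 and 522 against 3121, 3338 and 1464 CPM. Levels are CPM, library-size-scaled counts after TMM normalization, and every log2 fold change is WT BLM over WT PBS with its SE from edgeR's quasi-likelihood fit.

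Hair transcripts separated the WT groups completely. Genes of the hair shaft and inner root sheath made up 5.93 to 8.58 in the WT PBS mice and 0.0362 to 0.117 in the WT BLM mice, in percent of all counts. Treatment and hair phase therefore cannot be told apart within the WT mice, and the part of hair phase in any WT difference cannot be separated from that of bleomycin by these 6 libraries. Among the mice labelled Thy-1–KO the same share was 8.83, 0.0482 and 0.0885% in the 3 PBS mice and 4.45, 0.439 and 0.665% in the 3 BLM mice, so that 1 KO PBS mouse had the hair transcript level of WT PBS mice and the other 2 that of WT BLM mice.

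In WT skin 6222 genes differed between BLM and PBS (34% of those tested, edgeR with Benjamini-Hochberg adjustment, adjusted p under 0.05), 3633 of them higher (19.8%) and 2589 lower (14.1%). The median log2 fold change was 1.58 among the genes that rose, -1.05 among those that fell and 0.02 over all genes. Rises of at least 4-fold were called for 1255 genes (6.85%) and falls of that size for 588 (3.21%), whereas 2218 called genes (12.1%) differed by less than 2-fold. Leaving out 1 mouse lowered the number of calls, to between 2615 (without WT PBS mouse 160) and 4027 (without WT BLM mouse 145) for the 6 WT mice. Between them lay 2626 calls without WT PBS mouse 159, 3299 without WT BLM mouse 147, 3388 without WT PBS mouse 161 and 3706 without WT BLM mouse 146. Below, a bracket after a count of members gives its lowest and highest value over the 12 fits that each left out 1 of the 12 mice, and names the mice that moved it by more than 1.5 times. Each such count is to be read beside the shares of all genes called, 19.8% higher and 14.1% lower. Statements that the WT groups were separate are to be read beside the 57% of all genes without overlap, 28.3% higher and 28.7% lower in WT BLM.

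**Figure D1:**
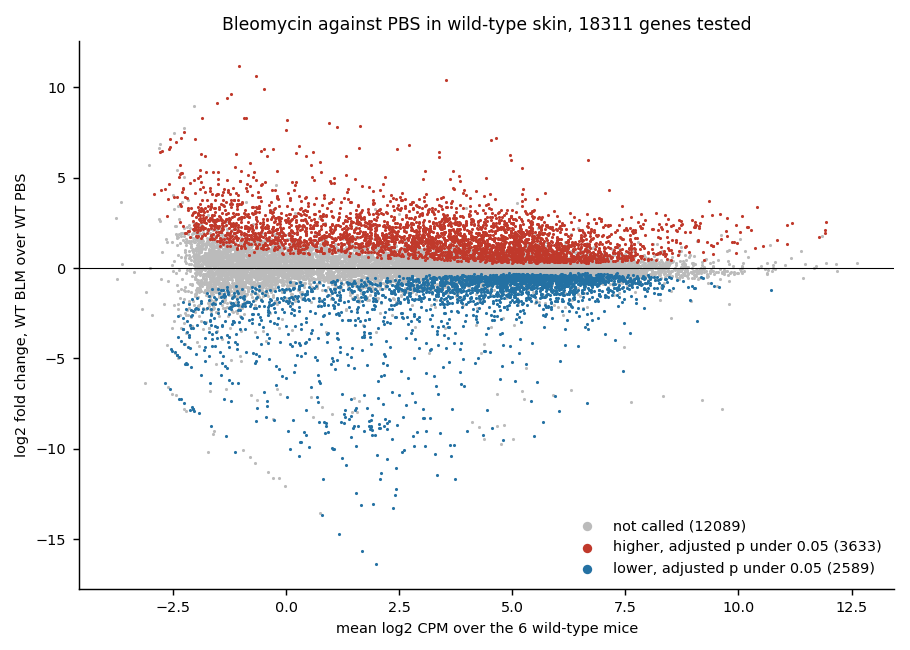
Each point is 1 of the 18311 genes tested, placed by its mean log2 CPM over the 6 WT mice (x axis) and its log2 fold change, WT BLM over WT PBS (y axis). Red marks the 3633 genes called higher and blue the 2589 called lower, and more falls than rises lie beyond 10 in size.

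Among genes with a mean of at least 1 on the log2 CPM scale, the smallest p-value belonged to Acot1, a cytosolic acyl-CoA thioesterase (chr12:84009490-84018371, GRCm38), at 56.8, 62.5 and 59.8 CPM in the WT PBS mice and 15.7, 17.998 and 17.9 CPM in the WT BLM mice (-1.796 ± 0.13, adjusted p = 0.00113). The values within each group lay close together. Vcam1, the endothelial and stromal adhesion molecule that holds leukocytes (chr3:116109949-116129688), was at 4.73, 5.0003 and 4.33 CPM in the WT PBS mice and 46.7, 48.9 and 46.9 CPM in the WT BLM mice (3.34 ± 0.33, adjusted p = 0.00215). Timp1, an inhibitor of matrix metalloproteinases (chrX:20870166-20874735), stood at 4.06, 3.22 and 3.46 CPM in the WT PBS mice and 62.6, 51.2 and 76.5 CPM in the WT BLM mice (4.15 ± 0.44, adjusted p = 0.00215). Every fit without 1 mouse kept the call of all 3 genes. They were picked by small p among called genes without overlap between the groups, so the separation of their groups follows from the choice. The others of the 10 genes of smallest p were Ccn4, Col8a1, Itga5, Itga7, Alad, Arhgef2 and Myadm, whose log2 fold changes ran from -1.07 for Alad, an enzyme of haem synthesis, to 4.104 for Col8a1.

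The largest falls were hair keratin-associated proteins, for example Krtap14 at 327, 1431 and 646 against 0, 0.815 and 0 CPM and Krtap15 at 509, 2095 and 1072 against 0, 1.11 and 0 CPM. Krtap19-2 was at 78.6, 602 and 313 against 0, 0 and 0 CPM, at least 3168-fold lower with a floor of 3 counts per library. Copies of the Krtap19 family are near-identical, so the split between them is uncertain. The largest rises included Krt6b, Stfa1 and Cstdc5 of wounded epidermis and neutrophils, Mmp13, a collagenase, Myh3, Mymk and Actc1 of regenerating muscle, and Tnnc1, a troponin of slow muscle fibres. Tnn (tenascin-W, a matrix glycoprotein of bone and stroma) rose as well, at 1.05, 1.25 and 1.095 against 51.8, 109 and 129 CPM (6.41 ± 1.03, adjusted p = 0.00474).

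**Figure D2:**
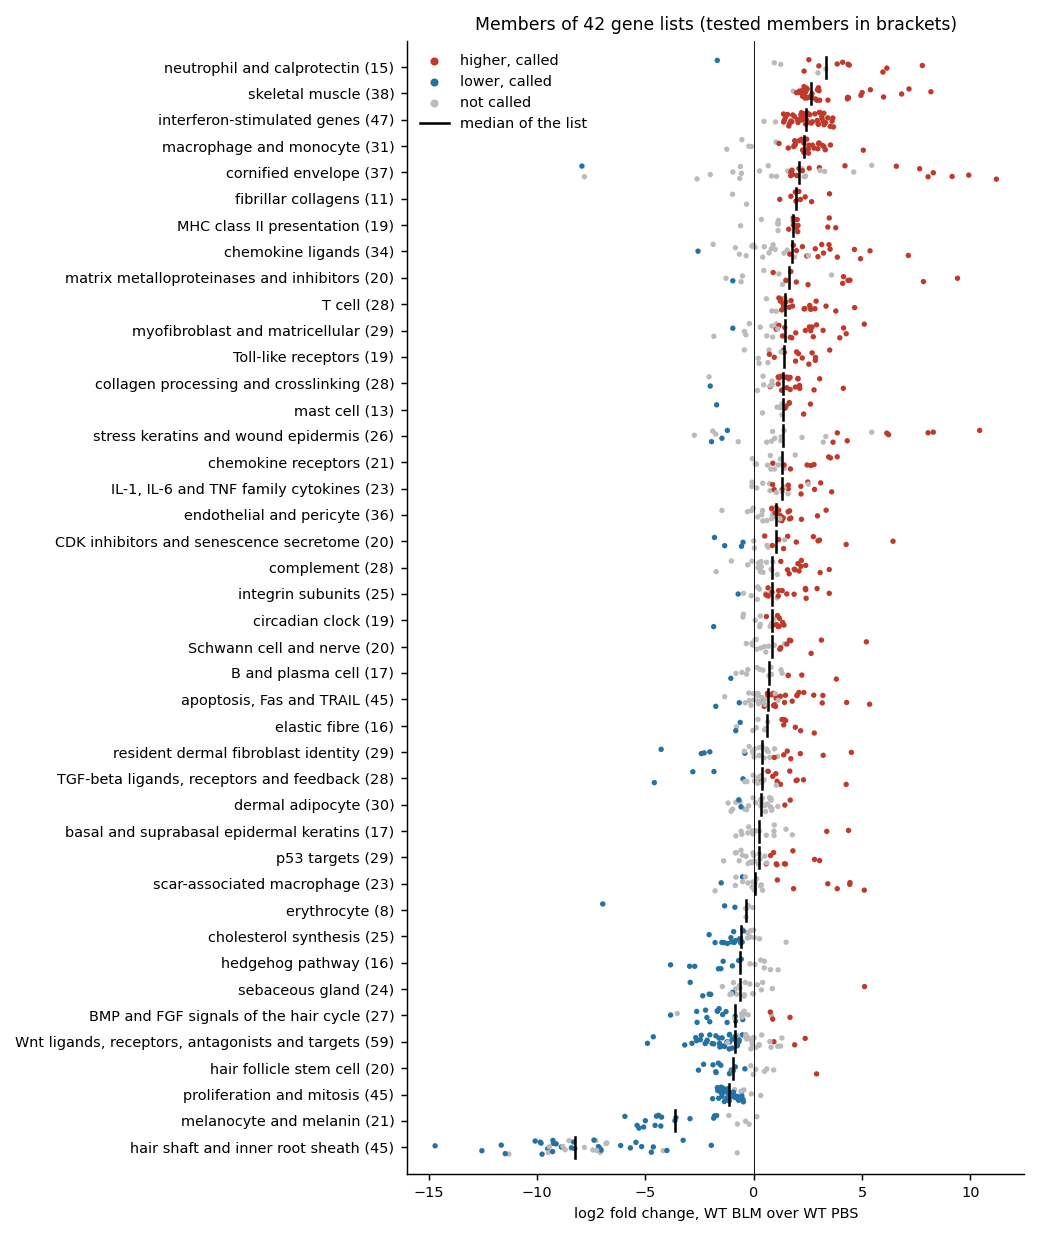
Log2 fold change (x axis) of every tested member of 42 gene lists (rows, sorted by median, number of tested members in brackets), WT BLM over WT PBS. Red members were called higher, blue members lower and grey members not called, and the black bar is the median, which runs from -8.26 for the hair shaft list to 3.33 for the neutrophil list.

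Thy1 itself (chr9:44043384-44048579), a GPI-anchored surface protein of fibroblasts, T cells and neurons and the gene that the label of the other 6 libraries names as knocked out, was at 104, 115 and 149.6 CPM in the WT PBS mice and 231, 349 and 416 CPM in the WT BLM mice (1.43 ± 0.304, adjusted p = 0.00971). The lowest WT BLM value was above the highest WT PBS value, and no fit without 1 mouse lost the call. In the libraries labelled Thy-1–KO it was at 45.6, 96.9 and 77.4 CPM in the KO PBS mice and 84.7, 128 and 96.4 CPM in the KO BLM mice. The gene was therefore well counted in all 6 of them, the KO PBS values lying below those of the WT PBS mice and the KO BLM values overlapping the latter. These counts go against the label if the knockout removes the whole transcript, and which part of the gene it removes is not given in the sources used here. Another gene, Tnfrsf23, did split the libraries as labelled. It had 192, 189 and 310 counts in the WT PBS mice and 695, 890 and 949 in the WT BLM mice. In the libraries labelled Thy-1–KO it had 0, 5 and 3 counts under PBS and 3, 3 and 3 under BLM. Why it differs was not tested. Every value given for KO mice rests on the label.

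Collagen genes rose in WT BLM skin. Of the fibrillar collagens, the rope-forming collagens of the dermis, 9 of 11 tested members rose (5 to 9, with 5 without WT PBS mice 159 or 160 and WT BLM mice 146 or 147) and none fell (0 to 1, with 1 without KO PBS mouse 137), with a median log2 fold change of 1.95. Col1a1, the chain that makes up most dermal collagen, was at 2079, 1629 and 2205 CPM in the WT PBS mice and 4070.3, 10755 and 10224 CPM in the WT BLM mice (2.08 ± 0.56, adjusted p = 0.0213). Col3a1 was at 2299.6, 1649 and 2476 against 3263, 12674 and 8374 CPM (1.92 ± 0.598, adjusted p = 0.0341). In both genes WT BLM mouse 145 was well below mice 146 and 147 though above all WT PBS mice, and both lost their call without any 1 of WT PBS mice 159, 160 or 161 or WT BLM mice 146 or 147. Col5a2 and Col5a3, chains of the type V collagen that sets fibril diameter, and the minor collagens Col24a1 and Col27a1 kept their calls in every such fit. Col5a2 was at 184, 169.8 and 226 against 614, 1381 and 1009.9 CPM (2.37 ± 0.42, adjusted p = 0.00568). Col5a3 was at 90.6, 105 and 119 against 335, 404 and 476 CPM (1.95 ± 0.33, adjusted p = 0.00537), and Col24a1 was at 1.69, 1.05 and 1.63 against 7.75, 24.8 and 16.9 CPM (3.496 ± 0.58, adjusted p = 0.00487). Groups were separate in all 3. Col8a1, a short-chain collagen of vessels and stroma, was at 13.9, 5.46 and 8.64 against 141, 199.8 and 139.6 CPM (4.104 ± 0.39, adjusted p = 0.00215).

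Enzymes that process and crosslink collagen rose with it. In that list 20 of 28 tested members rose (13 to 21, with 13 without WT PBS mouse 159) and 1 fell (1 to 2, with 2 without WT BLM mouse 146 and KO PBS mouse 136 and KO BLM mouse 141), the latter being Pcolce2 (-2.005), an enhancer of procollagen cleavage. The median was 1.37. Lox, the lysyl oxidase that starts crosslinks, was at 18.2, 13.1 and 24.7 CPM in the WT PBS mice and 84.5, 163 and 137 CPM in the WT BLM mice (2.78 ± 0.43, adjusted p = 0.00439). Loxl3 was at 7.41, 7.797 and 6.904 against 57.3, 51.6 and 73.4 CPM (3.04 ± 0.36, adjusted p = 0.00302), and Loxl2 was at 46.6, 52.6 and 62.7 against 155, 298 and 213 CPM (2.04 ± 0.35, adjusted p = 0.00557). No WT BLM mouse overlapped a WT PBS mouse in any of them. Plod3, which hydroxylates collagen lysines, differed less but evenly, at 46.9, 49.05 and 49.5 against 94.4, 109 and 115 CPM (1.13 ± 0.17, adjusted p = 0.00437).

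Myofibroblast and matricellular genes rose in most cases: 18 of 29 tested members rose (13 to 21) and 1 fell (0 to 2, with 0 without WT PBS mice 159, 160 or 161 and WT BLM mice 145 or 147, 2 without KO PBS mouse 137), namely Timp3 (-0.96), a matrix-bound protease inhibitor. The median was 1.43. Acta2, the smooth muscle actin of myofibroblasts, was at 165, 207 and 199 CPM in the WT PBS mice and 393, 333 and 444 CPM in the WT BLM mice (1.04 ± 0.18, adjusted p = 0.00539). This change was small beside that of the secreted proteins. Fn1 (fibronectin) was at 251, 377 and 389.7 against 1864, 2994 and 1988 CPM (2.75 ± 0.36, adjusted p = 0.00329), and Postn (periostin) was at 417, 339 and 500.1 against 1643, 5119 and 2621 CPM (2.901 ± 0.59, adjusted p = 0.00841). Spp1 (osteopontin) was at 3.11, 2.27 and 1.94 against 99.1, 54.6 and 97.2 CPM (5.101 ± 0.85, adjusted p = 0.00497), the largest rise of the list. WT BLM mouse 146 was the highest of the 6 for Fn1 and Postn and the lowest of the WT BLM mice for Spp1.

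Genes that mark resident dermal fibroblasts did not move as 1 block: 7 of 29 tested members rose (2 to 8, with 2 without WT PBS mice 160 or 161 and WT BLM mouse 146, 3 without WT PBS mouse 159 and WT BLM mouse 147), 5 fell (3 to 5, with 3 without WT PBS mice 159, 160 or 161 and WT BLM mice 145 or 147 and KO PBS mouse 139 and KO BLM mouse 143), and the median was 0.39. These shares, 24.1% higher and 17.2% lower, were near those of all genes, 19.8% and 14.1%. Pdgfra, the receptor that marks all of these cells, was at 44.7, 63.9 and 83.9 against 24.5, 100.4 and 75.04 CPM (adjusted p = 0.936), and Dcn (decorin) was at 504, 615 and 726 against 166, 954 and 479 CPM (adjusted p = 0.789). In both, the 3 WT BLM mice spread across the WT PBS range, with mouse 145 lowest and mouse 146 highest. Pi16 and Dpp4, which mark adventitial fibroblasts, fell, whereas Mfap5, another of their markers, rose. Pi16 was at 94.5, 173 and 127 CPM in the WT PBS mice and 3.68, 11.6 and 5.09 CPM in the WT BLM mice (-4.27 ± 0.59, adjusted p = 0.00355). Dpp4 was at 54.8, 74.97 and 69.6 against 9.63, 17.7 and 13.5 CPM (-2.29 ± 0.34, adjusted p = 0.00405), and Sfrp1, a secreted Wnt antagonist, was at 181, 192 and 227 against 41.03, 43.7 and 27.3 CPM (-2.42 ± 0.49, adjusted p = 0.00834). The other members that fell were Clec3b (-2.02) and Lrig1 (-0.41). Members that rose were Lum, Mfap5, Fbln2, Crabp1, Dlk1, Twist2 and Meox1, of which Fbln2, a basement membrane and elastic fibre protein, was at 119, 143 and 145 against 345, 704 and 760.4 CPM (2.15 ± 0.44, adjusted p = 0.00844).

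Among matrix metalloproteinases and their inhibitors, 11 of 20 tested members rose (6 to 14, with 6 without WT PBS mouse 160, 7 without WT PBS mouse 159) and 1 fell (0 to 2, with 0 without WT PBS mice 159, 160 or 161 and WT BLM mice 145 or 147, 2 without KO PBS mouse 136), again Timp3. Mmp13 (collagenase 3) was at 0.237, 0.197 and 0.127 CPM in the WT PBS mice and 22.5, 39.7 and 65.9 CPM in the WT BLM mice (7.83 ± 1.15, adjusted p = 0.00405). Mmp10 (stromelysin 2) had no count in any WT PBS mouse and was at 1.45, 2.97 and 3.61 CPM in the WT BLM mice, at least 29.02-fold higher. Mmp19 was at 9.26, 12.7 and 14.6 against 59.8, 70.4 and 78.03 CPM (2.51 ± 0.39, adjusted p = 0.00437). The gelatinase Mmp2, made by fibroblasts, was at 182, 192 and 226 against 187, 735 and 588 CPM and did not pass (adjusted p = 0.0804), with WT BLM mouse 145 within the WT PBS range, whereas the leukocyte gelatinase Mmp9 was at 4.16, 6.84 and 6.6998 against 47.3, 81.8 and 176 CPM (4.104 ± 0.85, adjusted p = 0.00917).

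In the elastic fibre list 7 of 16 tested members rose (3 to 7, with 3 without WT PBS mice 159 or 160 and WT BLM mice 146 or 147) and 2 fell (1 to 2, with 1 without WT PBS mice 159 or 160 and WT BLM mice 145, 146 or 147), the latter being Ltbp3 (-0.83) and Ltbp4 (-0.62), which hold latent TGF-β. Eln, elastin itself, was at 166, 78.8 and 74.9 against 32.1, 106 and 46.6 CPM (adjusted p = 0.234). Fbn1 (fibrillin-1, mutated in stiff skin syndrome) was at 133, 180.0 and 237 against 249, 653 and 459 CPM (1.304 ± 0.41, adjusted p = 0.0347) and lost its call without any 1 of WT PBS mice 159, 160 or 161 or WT BLM mice 146 or 147. Ltbp2, at 13.1, 14.1 and 9.22 against 61.7, 77.2 and 114 CPM (2.79 ± 0.45, adjusted p = 0.00477), and Emilin1, at 22.5, 23.7 and 24.4 against 80.5, 114 and 122 CPM (2.17 ± 0.36, adjusted p = 0.00487), kept theirs.

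Of TGF-β ligands, receptors and feedback genes, 12 of 28 tested members rose (4 to 14, with 4 without WT PBS mice 159 or 160) and 4 fell (1 to 6, with 1 to 2 without any 1 of the WT mice). All 3 ligands rose: Tgfb1 was at 31.5, 32.4 and 35.8 against 59.98, 73.9 and 101 CPM (1.24 ± 0.23, adjusted p = 0.00638), Tgfb3 was at 28.4, 21.8 and 22.2 against 74.9, 123 and 93.5 CPM (2.01 ± 0.37, adjusted p = 0.00638), and Tgfb2 had a log2 fold change of 0.88 (adjusted p = 0.0271). Lrrc32, which displays latent TGF-β on the cell surface, was at 16.6, 15.9 and 13.5 against 49.3, 82.4 and 94.3 CPM (2.297 ± 0.42, adjusted p = 0.00638). The kinase receptor Tgfbr1 was at 32.7, 33.7 and 40.6 against 35.5, 55.9 and 38.1 CPM (adjusted p = 0.263). The 4 members that fell were Smad2 (-0.49), which transmits the signal, and 3 inhibitors, Smad6 (-2.81), Smad7 (-1.83) and Bambi (-4.58).

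**Figure D3:**
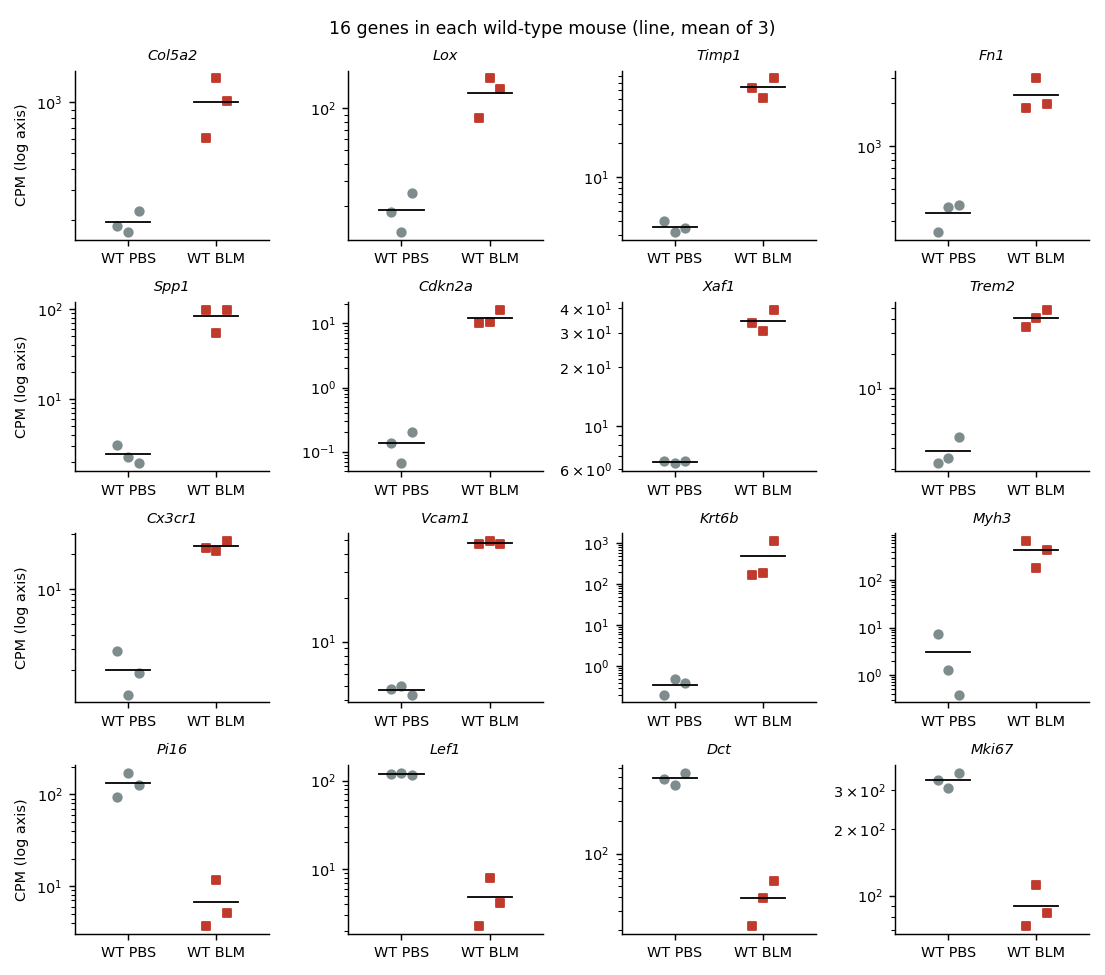
CPM on a log axis of 16 genes in each WT PBS mouse (grey circles) and each WT BLM mouse (red squares), with the mean of 3 mice as a bar. No WT BLM mouse overlaps a WT PBS mouse in any panel, beside 57% of all genes without overlap in either direction. The 16 genes were chosen with their values known. Pi16, Lef1, Dct and Mki67 are the 4 panels in which WT BLM is lower.

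Macrophage and monocyte genes were raised in WT BLM skin. In that list 26 of 31 tested members rose (16 to 26, with 16 without WT PBS mice 159 or 160) and none fell (0 to 2, with 1 without KO PBS mouse 137, 2 without KO PBS mouse 136), with a median of 2.32. Adgre1 (F4/80), the mouse macrophage marker, was at 17.95, 25.8 and 30.8 CPM in the WT PBS mice and 76.5, 164 and 131 CPM in the WT BLM mice (2.32 ± 0.49, adjusted p = 0.00945). Csf1r, the growth factor receptor of the lineage, was at 63.8, 114 and 128 against 229, 324 and 370.2 CPM (1.595 ± 0.42, adjusted p = 0.0202) and lost its call without WT PBS mouse 159 or 160 or WT BLM mouse 147. The monocyte receptor Cx3cr1 was at 2.91, 1.22 and 1.86 against 22.7, 21.3 and 25.8 CPM (3.54 ± 0.43, adjusted p = 0.00304). All 3 genes had WT BLM values above every WT PBS value. Fcgr4, an activating Fc receptor, was at 2.198, 0.724 and 3.03 against 13.6, 20.8 and 24.8 CPM (3.304 ± 0.71, adjusted p = 0.01), and Mpeg1 (perforin-2) was at 30.9, 38.4 and 39.2 against 211, 332 and 318 CPM (2.99 ± 0.44, adjusted p = 0.00405). Ly6c2, a marker of inflammatory monocytes with a close copy, was at 0.338, 0.197 and 0.178 against 6.38, 5.74 and 11.7 CPM (5.05 ± 0.51, adjusted p = 0.00215), and its value relative to that copy is uncertain.

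Genes described for macrophages of scarred tissue were divided: 7 of 23 tested members rose (5 to 7), 2 fell (1 to 3, with 1 without WT PBS mice 159 or 161), and the median of 0.06 was near that of all genes. Trem2, a lipid receptor of these cells, was at 2.23, 2.5002 and 3.74 CPM in the WT PBS mice and 34.02, 40.9 and 48.2 CPM in the WT BLM mice (3.86 ± 0.596, adjusted p = 0.00437). Ctss, a lysosomal protease, was at 40.9, 51.98 and 65.3 against 491, 557 and 644 CPM (3.42 ± 0.52, adjusted p = 0.00431), and Ctsk, Cd63, Chil3, Mmp12 and Spp1 also rose. Gpnmb was at 530.3, 669 and 544 against 127, 162 and 218 CPM, lower in every WT BLM mouse though not past the threshold (adjusted p = 0.0666). It is also a pigment cell gene. Cd9 (-0.52) and Syngr1 (-1.499) were the 2 members that fell.

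The neutrophil and calprotectin list had the highest median of the 42 lists, 3.33, or 3.01 with the 1 member at the counting floor set to its bound. It shares S100a8, S100a9 and Lcn2 with the list of stress keratins and wound epidermis, and so does not mark neutrophils alone. In it 10 of 15 tested members rose (5 to 12, with 5 without WT PBS mouse 160, 6 without WT PBS mouse 159) and 1 fell (0 to 1, with 0 without WT PBS mice 159, 160 or 161 and WT BLM mice 145 or 147), Camp (-1.68). S100a9, a subunit of calprotectin, was at 1.32, 1.91 and 1.43 CPM in the WT PBS mice and 47.9, 24.6 and 256 CPM in the WT BLM mice (6.14 ± 1.47, adjusted p = 0.0142), and lost its call without any 1 of the WT PBS mice. Its partner S100a8 was at 6.69, 8.42 and 4.56 against 23.96, 15.5 and 158 CPM and did not pass (adjusted p = 0.0797). WT BLM mouse 147 was the highest by a wide margin for both. Csf3r, the G-CSF receptor, was more even, at 3.18, 3.82 and 3.36 against 11.6, 21.4 and 27.5 CPM (2.54 ± 0.44, adjusted p = 0.00557). Stfa1 and Stfa3, stefins with near-identical copies and so uncertain one by one, had log2 fold changes of 7.78 and 5.96.

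Lymphocyte genes came next. Of the T cell list 24 of 28 tested members rose (9 to 25, with 9 without WT PBS mice 160 or 161, 11 without WT PBS mouse 159, 13 without WT BLM mouse 147, 15 without WT BLM mouse 145) and none fell, with a median of 1.45. Cd3e, a chain of the T cell receptor complex, was at 4.36, 4.61 and 5.401 CPM in the WT PBS mice and 19.6, 7.04 and 11.5 CPM in the WT BLM mice (1.403 ± 0.44, adjusted p = 0.0343), with WT BLM mouse 145 highest and mouse 146 lowest of the 3, and lost its call without any 1 WT mouse other than 146. Cd4 was at 2.604, 3.13 and 3.06 against 11.04, 20.5 and 33.2 CPM (2.88 ± 0.505, adjusted p = 0.00561), and Trac was at 0.947, 1.09 and 0.713 against 3.798, 4.73 and 5.22 CPM (2.32 ± 0.38, adjusted p = 0.00478). Pdcd1 (PD-1) was at 0.169, 0.0658 and 0.102 against 1.61, 2.84 and 4.27 CPM (4.66 ± 0.604, adjusted p = 0.00314), and the killer proteases Gzma and Gzmb had log2 fold changes of 2.83 and 3.34. In the B and plasma cell list 3 of 17 tested members rose (2 to 3), Cd79b, Cd22 and Fcrla, and 1 fell (0 to 2, with 0 without any 1 of the WT mice, 0 without KO BLM mice 143 or 144, 2 without KO PBS mouse 136), Prdm1, which keratinocytes also express. Its shares, 17.6% higher and 5.88% lower, were below those of all genes, 19.8% and 14.1%. Of mast cell genes 6 of 13 tested members rose (1 to 10, with 1 to 10 without any 1 of the WT mice) and 1 fell (0 to 1, with 0 without WT PBS mice 159, 160 or 161 and WT BLM mice 145 or 147), Kit (-1.71 ± 0.48, adjusted p = 0.0236), which melanocytes share and which was not called without any 1 WT mouse other than 146. The protease genes Cpa3 and Mcpt4 did not pass (adjusted p = 0.0937 and 0.0739), WT BLM mouse 145 being at the WT PBS level for both.

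Antigen presentation through MHC class II rose: 12 of 19 tested members rose (9 to 15) and none fell (0 to 1, with 1 without KO PBS mouse 136), with a median of 1.83. H2-Aa was at 228, 245 and 263 CPM in the WT PBS mice and 679, 1165 and 1114 CPM in the WT BLM mice (2.01 ± 0.44, adjusted p = 0.0107). Cd74, the invariant chain, was at 495, 545 and 555 against 1577, 2252 and 2415 CPM (1.97 ± 0.43, adjusted p = 0.0104). Itgax (CD11c), an integrin of dendritic cells and some macrophages, was at 6.76, 5.66 and 4.76 against 55.6, 57.9 and 78.9 CPM (3.49 ± 0.52, adjusted p = 0.00415). WT PBS values were tight in all 3, and WT BLM values lay entirely above them.

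Chemokines, the ligands that draw leukocytes in, rose in about as many genes as they did not: 16 of 34 tested members rose (8 to 18, with 8 without WT PBS mouse 160 and WT BLM mouse 147, 9 without WT PBS mouse 161) and 1 fell (1 to 3, with 3 without KO PBS mouse 136), Cxcl14 (-2.57), a constitutive epithelial chemokine. The monocyte attractant Ccl2 was at 4.46, 2.17 and 1.81 CPM in the WT PBS mice and 14.5, 17.1 and 28.8 CPM in the WT BLM mice (2.84 ± 0.49, adjusted p = 0.00559), and Ccl7 was at 2.401, 1.64 and 2.73 against 14.1, 16.5 and 29.2 CPM (3.14 ± 0.51, adjusted p = 0.00477). Ccl3 was near 0 in WT PBS skin and at 1.57, 1.86 and 3.28 CPM in WT BLM skin, at least 24.2-fold higher. Ccl5, a T cell and monocyte attractant, was at 0.947, 0.362 and 0.153 against 5.48, 6.85 and 8.63 CPM (3.86 ± 0.68, adjusted p = 0.00561), whereas stromal Cxcl12 was at 213, 249 and 204 against 78.5, 252 and 193 CPM (adjusted p = 0.487). Of the receptors, 9 of 21 tested members rose (7 to 12) and none fell. Ccr2, the receptor of Ccl2 and Ccl7, was at 12.5, 13.9 and 26.7 against 73.5, 165 and 126 CPM (2.78 ± 0.55, adjusted p = 0.00778), and Cxcr4 was at 8.12, 11.02 and 10.1 against 15.5, 19.3 and 19.2 CPM (0.88 ± 0.22, adjusted p = 0.0162). Ccr2 kept its call in every fit without 1 mouse, and Cxcr4 lost its call without WT PBS mouse 159.

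Innate sensors and their effectors followed. Of the Toll-like receptors and adaptors, 13 of 19 tested members rose (5 to 15, with 5 without WT PBS mouse 159, 6 without WT PBS mouse 160) and none fell. Tlr13, a sensor of bacterial ribosomal RNA, was at 1.08, 2.24 and 3.44 CPM in the WT PBS mice and 19.3, 28.3 and 29.8 CPM in the WT BLM mice (3.51 ± 0.66, adjusted p = 0.00693). Tlr2 was at 4.7000, 4.41 and 5.76 against 34.5, 26.998 and 45.2 CPM (2.84 ± 0.37, adjusted p = 0.00314), and Tlr9, which reads unmethylated DNA, was at 1.93, 2.53 and 4.13 against 12.8, 18.5 and 24.5 CPM (2.69 ± 0.51, adjusted p = 0.007). The groups were separate in each. Tlr4 was at 3.48, 4.704 and 6.95 against 10.5, 18.1 and 11.7 CPM (1.41 ± 0.402, adjusted p = 0.0254) and lost its call without WT PBS mouse 159 or 160 or WT BLM mouse 146. In the complement list 12 of 28 tested members rose (4 to 15, with 4 without WT PBS mouse 159, 6 without WT PBS mouse 160, 7 without WT BLM mouse 147) and none fell (0 to 1, with 1 without KO PBS mice 136 or 137). C1qa, of the recognition complex, was at 49.8, 85.9 and 132 against 285, 401 and 458 CPM (2.09 ± 0.53, adjusted p = 0.0172), not called without WT PBS mouse 159 or 160. The anaphylatoxin receptor C3ar1 was at 5.31, 9.38 and 13.04 against 58.6, 88.04 and 85.8 CPM (3.06 ± 0.53, adjusted p = 0.00545), while the complement gene C3 was at 90.3, 226 and 184 against 107, 643 and 177 CPM (adjusted p = 0.402), with WT BLM mouse 146 alone above the WT PBS mice.

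Cytokines of the IL-1, IL-6 and TNF families were called less evenly: 11 of 23 tested members rose (2 to 15, with 2 without WT PBS mouse 160, 4 without WT PBS mice 159 or 161 and WT BLM mouse 147) and none fell. The alarmin Il33 was at 9.57, 7.27 and 9.604 CPM in the WT PBS mice and 51.02, 47.6 and 86.6 CPM in the WT BLM mice (2.81 ± 0.51, adjusted p = 0.00608), and Osm (oncostatin M) was at 0.203, 0.164 and 0.178 against 1.45, 1.21 and 2.07 CPM (3.09 ± 0.68, adjusted p = 0.0107). Both kept their calls in every fit without 1 mouse. Il1b was at 1.86, 1.55 and 1.63 against 5.87, 6.195 and 10.9 CPM (2.19 ± 0.54, adjusted p = 0.0155), not called without any 1 WT PBS mouse or without WT BLM mouse 147, and Tnf was at 2.03, 1.05 and 1.83 against 5.56, 3.68 and 5.68 CPM (1.598 ± 0.38, adjusted p = 0.0133), not called without WT PBS mouse 160. Of the integrin subunits 15 of 25 tested members rose (8 to 17, with 8 without WT PBS mice 159 or 160, 9 without WT BLM mouse 147) and 1 fell (0 to 1, with 0 without WT PBS mice 159, 160 or 161 and WT BLM mice 146 or 147 and KO BLM mice 143 or 144), Itga3 (-0.72). Itga5, the fibronectin receptor chain, was at 31.3, 29.2 and 29.4 against 137, 157 and 175 CPM (2.38 ± 0.25, adjusted p = 0.00215). Itga7, the laminin receptor chain of muscle, was at 31.9, 32.96 and 28.6 against 212, 128 and 149 CPM (2.39 ± 0.25, adjusted p = 0.00215). The shared β1 chain Itgb1 was at 208, 233 and 268 against 475, 546 and 537 CPM (1.13 ± 0.18, adjusted p = 0.00439).

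Interferon-stimulated genes were the list with the highest share of members called among the immune lists. Of them 45 of 47 tested members rose (33 to 46) and none fell, a share of 95.7% beside the 19.8% of all genes, and the median was 2.39. On average over the list the log2 CPM ranged from 2.60 to 3.19 in the WT PBS mice and 5.11 to 5.55 in the WT BLM mice. Xaf1, an interferon-induced apoptosis factor (chr11:72301629-72313733), was at 6.59, 6.45 and 6.65 CPM in the WT PBS mice and 33.5, 30.6 and 39.3 CPM in the WT BLM mice (2.39 ± 0.31, adjusted p = 0.00314). Isg15, a ubiquitin-like modifier, was at 5.27, 4.64 and 8.305 against 50.7, 30.2 and 62.7 CPM (2.97 ± 0.53, adjusted p = 0.00589), and Ifi44 was at 1.08, 1.28 and 1.71 against 10.8, 13.3 and 14.5 CPM (3.24 ± 0.56, adjusted p = 0.0055). The transcription factor subunit Irf9 was at 32.2, 33.2 and 29.5 against 87.7, 72.9 and 86.3 CPM (1.38 ± 0.18, adjusted p = 0.00329), the RNA sensor Ddx58 (RIG-I) was at 21.9, 21.6 and 24.05 against 60.5, 62.8 and 76.4 CPM (1.56 ± 0.201, adjusted p = 0.00314), and Gbp3, a guanylate-binding protein with close copies in 1 cluster, was at 10.01, 9.11 and 8.89 against 39.1, 55.95 and 51.3 CPM (2.38 ± 0.32, adjusted p = 0.00329). All 6 genes were higher in every WT BLM mouse than in any WT PBS mouse, and all kept their calls in every fit without 1 mouse.

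Interferon signals reach these genes through the interferon-stimulated response element (ISRE), bound by STAT and IRF proteins. RefSeq promoter sequences (GRCm38.p6, 250 bases before to 50 after the start) were matched by symbol for 34 of the tested list members and 13163 of all tested genes. The ISRE letters GAAANNGAAA, read on both strands, stood in 22 of the 34 (64.7%) and in 421 of the 13163 (3.2%). Of the 22 with a match 21 rose, with a median log2 fold change of 2.41, and of the 12 without one all 12 rose, with a median of 2.30. The promoters of Isg15, with 3 overlapping matches from base -78, and Gbp3, with 2 overlapping matches from base -45 on the other strand, are shown as examples from the genes described above, with matches in capitals.
Isg15 (chr4:156200769-156201068, minus strand): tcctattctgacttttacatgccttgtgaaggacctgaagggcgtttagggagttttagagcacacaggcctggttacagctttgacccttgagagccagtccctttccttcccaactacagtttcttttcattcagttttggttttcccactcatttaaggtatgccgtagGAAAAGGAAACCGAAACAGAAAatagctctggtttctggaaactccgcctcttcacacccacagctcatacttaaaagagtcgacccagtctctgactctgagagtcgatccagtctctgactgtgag
Gbp3 (chr3:142559794-142560093, plus strand): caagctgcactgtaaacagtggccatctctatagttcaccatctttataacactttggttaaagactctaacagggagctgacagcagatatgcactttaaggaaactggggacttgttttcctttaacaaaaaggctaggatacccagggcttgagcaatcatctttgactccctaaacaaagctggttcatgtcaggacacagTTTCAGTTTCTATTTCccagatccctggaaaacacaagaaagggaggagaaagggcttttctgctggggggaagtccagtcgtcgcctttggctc

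The same search for an NF-κB-type site, GGGANNTTCC, found it in 5 of 25 chemokine ligand promoters (20%) and in 202 of 13163 (1.53%). Of the 5 members with a match 4 rose (median 2.97), and of the 20 without one 5 rose and 1 fell (median 0.80).

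Most constitutive keratins of the epidermis did not pass the test. Of the basal and suprabasal keratins 2 of 17 tested members rose (0 to 6, with 0 without WT PBS mice 159 or 160 and WT BLM mouse 147, 1 without WT PBS mouse 161 and KO BLM mice 143 or 144, 4 without KO BLM mouse 141, 5 without KO PBS mouse 136, 6 without WT BLM mouse 146), Krt1 and Krt2, and none fell (0 to 2, with 1 without WT BLM mouse 145, 2 without KO PBS mouse 136). Krt14 of the basal layer was at 1988, 1968 and 2132 CPM in the WT PBS mice and 3915, 1992 and 5766 CPM in the WT BLM mice (adjusted p = 0.141). Krt10 of the layers above was at 1769, 1724 and 2786 against 8265, 3677 and 9626 CPM (adjusted p = 0.0523). WT BLM mouse 146 was the lowest of the 3 in both. Krt2 was called (4.37 ± 1.45, adjusted p = 0.0413) although WT BLM mouse 146, at 1.21 CPM, was below all WT PBS mice, at 5.13 to 7.54 CPM, and lost its call without any 1 WT PBS mouse, WT BLM mouse 147 or KO BLM mouse 143 or 144.

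In the list of stress keratins and wound epidermis 8 of 26 tested members rose (5 to 11, with 5 without WT PBS mice 159 or 160) and 3 fell (0 to 6, with 0 without any 1 of the WT mice, 6 without KO PBS mouse 136). Krt6b, a keratin of activated and wound-edge keratinocytes, was at 0.203, 0.493 and 0.382 CPM in the WT PBS mice and 171, 191 and 1141 CPM in the WT BLM mice (10.42 ± 2.18, adjusted p = 0.00936). Krt16, its partner, was at 32.5, 44.5 and 31.2 against 366, 308 and 1481 CPM (4.31 ± 1.295, adjusted p = 0.0303), not called without any 1 WT PBS mouse or without WT BLM mouse 147. Krt6a, which the companion layer of the follicle also makes, was at 473, 458 and 393 against 289.7, 381 and 1333 CPM (adjusted p = 0.555). WT BLM mouse 147 was the highest in all 3. Slpi, a secreted protease inhibitor of wounds, was at 1.18, 2.17 and 1.299 against 11.4, 9.29 and 46.9 CPM (3.86 ± 0.87, adjusted p = 0.0118). Krt17 (-1.21), Epgn (-1.47) and Tgfa (-1.94) were the members that fell. Cornified envelope genes split too: 17 of 37 tested members rose (2 to 20, with 2 without WT PBS mice 159 or 160, 6 without WT BLM mouse 147, 7 without WT PBS mouse 161, 9 without WT BLM mouse 145) and 1 fell (0 to 5, with 0 without any 1 of the WT mice, 3 without KO PBS mice 137 or 139, 5 without KO PBS mouse 136), Tchhl1 (-7.92), a relative of the hair protein trichohyalin. Lor (loricrin) and Ivl (involucrin), its main proteins, did not pass (adjusted p = 0.0614 and 0.318). The members called higher include the Sprr2 and Lce families, whose near-identical copies make single genes uncertain, for example Sprr2d at 0.203, 0.0658 and 0.102 against 17.2, 6.85 and 75.5 CPM.

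Genes of the hair shaft were lower in every member. In the hair shaft and inner root sheath list 30 of 45 tested members fell (5 to 44, with 5 to 8 without any 1 of the WT mice, 17 without KO BLM mouse 144) and none rose, and all 45 were lower in every WT BLM mouse than in any WT PBS mouse, a separation seen for 28.7% of all genes in that direction, 28.3% in the other and 57% in either. The median was -8.26, or -7.81 with members at the counting floor set to their bound. Krt71, an inner root sheath keratin, was at 13454, 16071 and 12840.0 CPM in the WT PBS mice and 15.2, 253 and 3.67 CPM in the WT BLM mice, and Krt31, a cortex keratin, was at 704, 1146 and 807 against 0.235, 5.28 and 0.0984 CPM (-8.87 ± 2.996, adjusted p = 0.0437), not called without any 1 of the WT mice or without KO BLM mouse 144. Krt71 did not pass (adjusted p = 0.072) despite that difference, in a fit whose spread is shared with mice labelled Thy-1–KO that differed among themselves in hair, and 44 of the 45 were called when only the 6 WT libraries were fitted. Transcription factors of the hair matrix passed with less spread, but those given here were named for their small p among called members, and Krt31 and Krt71 whatever their result. Lef1, the Wnt effector (chr3:131110471-131224356), was at 120.1, 123 and 114 against 2.27, 8.02 and 4.101 CPM (-4.63 ± 1.02, adjusted p = 0.0108). Hoxc13 was at 196, 175 and 180.3 against 5.44, 9.06 and 6.37 CPM (-4.72 ± 1.003, adjusted p = 0.00978), and Msx2 was at 199, 189.9 and 189.5 against 4.66, 6.78 and 4.59 CPM (-5.17 ± 1.14, adjusted p = 0.011). WT BLM mouse 146 held the most hair transcript of the 3 in each of these 5 genes.

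Hair follicle stem cell genes fell by less. Here 12 of 20 tested members fell (7 to 12, with 7 without WT BLM mouse 147) and 1 rose (1 to 3, with 2 without KO PBS mice 137 or 139, 3 without KO PBS mouse 136), Postn, with a median of -0.96. Lgr5 was at 47.2, 43.8 and 53.7 CPM in the WT PBS mice and 7.09, 23.8 and 12.2 CPM in the WT BLM mice (-1.75 ± 0.44, adjusted p = 0.0164), not called without WT BLM mouse 147, and Lhx2 was at 86.3, 80.2 and 91.6 against 11.5, 23.6 and 16.9 CPM (-2.31 ± 0.37, adjusted p = 0.00467). Tbx1 was at 92.9, 90.6 and 72.4 against 9.28, 14.8 and 19.6 CPM (-2.55 ± 0.42, adjusted p = 0.00487). Cd34, which marks the bulge and also fibroblasts and vessels, was at 137, 178 and 204 against 71.5, 276 and 165 CPM (adjusted p = 0.978).

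The signals that time the hair cycle were lower as well. Of BMP and FGF signals 15 of 27 tested members fell (8 to 18, with 8 without WT BLM mouse 147) and 3 rose (0 to 3, with 0 without WT PBS mice 159 or 160, 1 without WT PBS mouse 161 and WT BLM mice 146 or 147), Nog (1.67), Fgfr1 (0.77) and Tgfb2. Bmp4 was at 50.2, 43.7 and 48.9 CPM in the WT PBS mice and 12.96, 10.04 and 8.99 CPM in the WT BLM mice (-2.16 ± 0.301, adjusted p = 0.00365), and Bmp2 was at 26.98, 34.3 and 29.3 against 9.59, 9.03 and 9.58 CPM (-1.68 ± 0.33, adjusted p = 0.00778). Both were even within groups. Id3, a BMP target, was at 152, 124 and 137 against 37.4, 60.2 and 55.3 CPM (-1.43 ± 0.21, adjusted p = 0.00405), and Fgf5, which ends hair growth, was at 10.1, 18.3 and 13.7 against 1.57, 1.598 and 0.492 CPM (adjusted p = 0.0798). In the hedgehog pathway, whose ligand is made by the growing matrix, 9 of 16 tested members fell (4 to 9, with 4 without WT BLM mouse 147, 5 without WT BLM mouse 145) and none rose (0 to 1, with 1 without WT BLM mouse 145 and KO PBS mouse 136). Shh was at 15.05, 14.97 and 13.04 against 0.235, 2.15 and 0.591 CPM (-3.83 ± 0.96, adjusted p = 0.0164), not called without WT BLM mouse 147. Its target Gli1 was at 86.6, 87.8 and 73.1 against 17.1, 40.1 and 22.9 CPM (-1.63 ± 0.43, adjusted p = 0.0199), not called without WT PBS mouse 159 or 160 or WT BLM mouse 145 or 147, and the hedgehog-binding antagonist Hhip, also a target, was at 6.56, 7.63 and 15.6 against 0.587, 2.67 and 0.558 CPM (-2.96 ± 0.699, adjusted p = 0.0137). The GLI site letters GACCACCCA were in none of 12 pathway promoters and in 28 of 13163 (0.213%).

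Of the Wnt genes 35 of 59 tested members fell (19 to 37, with 19 without WT BLM mouse 147) and 3 rose (2 to 3), Wnt9a (0.93), Wnt16 (1.89) and Fzd9 (2.38), with a median of -0.86. The ligand Wnt10b was at 56.4, 38.6 and 43.1 CPM in the WT PBS mice and 6.03, 9.46 and 6.79 CPM in the WT BLM mice (-2.63 ± 0.39, adjusted p = 0.00415). Axin2, a general target of the pathway, was at 82.6, 81.1 and 76.4 against 68.6, 47.2 and 51.2 CPM (-0.52 ± 0.17, adjusted p = 0.0376), a small fall that was not called without any 1 WT PBS mouse or without WT BLM mouse 146 or 147. Sp5, a target gene at low level, was at 0.7101, 0.757 and 0.713 against 0.157, 0.163 and 0.164 CPM (-2.14 ± 0.41, adjusted p = 0.007).

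Pigment genes fell with the hair. Of the melanocyte and melanin list 16 of 21 tested members fell (11 to 18) and none rose, with a median of -3.63. Dct, an enzyme of melanin synthesis (chr14:118012790-118052244), was at 484, 424 and 551 CPM in the WT PBS mice and 21.7, 39.6 and 56.3 CPM in the WT BLM mice (-3.63 ± 0.69, adjusted p = 0.00693). Tyr (tyrosinase) was at 105, 88.1 and 129 against 2.35, 4.14 and 3.54 CPM (-4.999 ± 1.12, adjusted p = 0.0115), and Slc45a2, a melanosome transporter, was at 31.99, 25.6 and 35.8 against 0.313, 0.685 and 1.21 CPM (-5.38 ± 1.01, adjusted p = 0.00689). No value of one group reached the other.

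Cell division genes fell in WT BLM skin. In that list 38 of 45 tested members fell (9 to 43, with 9 to 17 without any 1 of the WT mice) and none rose, with a median of -1.13. Mki67 was at 333, 305 and 359 CPM in the WT PBS mice and 72.9, 112 and 83.6 CPM in the WT BLM mice (-1.896 ± 0.48, adjusted p = 0.0172), not called without WT BLM mouse 145 or 147, and Top2a was at 205, 196 and 212 against 60.8, 83.5 and 73.8 CPM (-1.49 ± 0.404, adjusted p = 0.0214), not called without WT PBS mouse 159 or WT BLM mouse 145 or 147. The replication genes Mcm5, Pcna and Uhrf1 were tighter and kept their calls. They were named for their small p among called members, and Mki67 and Top2a whatever their result, so this contrast follows from the choice. Mcm5 was at 72.9, 69.1 and 73.8 against 32.1, 35.4 and 38.2 CPM (-1.03 ± 0.24, adjusted p = 0.0125), Pcna was at 81.6, 77.01 and 82.5 against 53.9, 51.9 and 58.996 CPM (-0.55 ± 0.11, adjusted p = 0.00909), and Uhrf1 was at 94.7, 85.7 and 88.96 against 29.01, 31.5 and 34.8 CPM (-1.499 ± 0.34, adjusted p = 0.0115).

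Promoters of mitotic genes often carry the cell cycle homology region (CHR), through which the DREAM complex represses them in resting cells. Its letters TTTGAA, read on both strands, were in 16 of 36 list promoters (44.4%) and in 1685 of 13163 (12.8%). Of the 16 with a match 14 fell (median -1.22), and of the 20 without one 16 fell (median -0.91). The promoters of both genes that open the paragraph above are shown, with 2 matches each in capitals.
Mki67 (chr7:135716330-135716629, minus strand): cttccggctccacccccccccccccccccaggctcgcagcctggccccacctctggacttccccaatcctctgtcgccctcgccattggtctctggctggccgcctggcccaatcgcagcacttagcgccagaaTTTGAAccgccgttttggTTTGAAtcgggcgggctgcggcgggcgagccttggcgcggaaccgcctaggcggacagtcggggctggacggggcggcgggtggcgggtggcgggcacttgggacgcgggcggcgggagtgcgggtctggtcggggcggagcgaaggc
Top2a (chr11:99024140-99024439, minus strand): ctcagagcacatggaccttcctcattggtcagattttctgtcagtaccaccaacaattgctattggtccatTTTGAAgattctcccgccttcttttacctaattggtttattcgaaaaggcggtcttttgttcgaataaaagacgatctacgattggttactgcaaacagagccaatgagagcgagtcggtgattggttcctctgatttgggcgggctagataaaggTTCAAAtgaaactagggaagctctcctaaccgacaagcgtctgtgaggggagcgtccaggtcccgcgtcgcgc

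DNA breaks activate p53, and its targets Cdkn1a and Mdm2 did not pass the test. Cdkn1a (p21) was at 346, 348 and 342 CPM in the WT PBS mice and 378, 297 and 385 CPM in the WT BLM mice (adjusted p = 0.922), and Mdm2 was at 61.2, 61.5 and 56.3 against 80.5, 70.3 and 68.8 CPM (adjusted p = 0.125). For Cdkn1a the groups overlapped. In the p53 list 10 of 29 tested members rose (7 to 13) and none fell (0 to 5, with 2 without KO PBS mouse 137, 5 without KO PBS mouse 136), with a median of 0.23. In that list 6 fell when the 6 WT libraries were fitted alone and 3 by DESeq2. Eda2r, a death-domain receptor, was at 4.598, 4.24 and 3.92 against 34.9, 33.8 and 20.6 CPM (2.81 ± 0.34, adjusted p = 0.00302), and Phlda3 was at 83.2, 75.3 and 75.3 against 176, 150.2 and 165 CPM (1.07 ± 0.15, adjusted p = 0.00397). Bbc3 (PUMA) was at 7.47, 6.84 and 6.37 against 13.7, 13.1 and 15.8 CPM (1.04 ± 0.18, adjusted p = 0.00539), and the stress cytokine Gdf15 was at 0.203, 0.2303 and 0.127 against 1.06, 1.598 and 1.97 CPM (3.04 ± 0.51, adjusted p = 0.00501).

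Cdkn2a, the p16 and p19ARF locus used as a senescence marker (chr4:89274471-89294653), was at 0.135, 0.0658 and 0.204 CPM in the WT PBS mice and 10.1, 10.3 and 16.3 CPM in the WT BLM mice (6.43 ± 0.66, adjusted p = 0.00215), and called in every fit without 1 mouse. In the list of CDK inhibitors and the senescence secretome 11 of 20 tested members rose (4 to 12, with 4 without WT PBS mouse 160, 6 without WT PBS mice 159 or 161, 7 without WT BLM mouse 147) and 4 fell (1 to 4, with 1 without WT BLM mouse 145, 2 without WT BLM mouse 146). Plaur, the urokinase receptor, was at 3.92, 4.77 and 4.41 against 26.5, 25.4 and 36.4 CPM (2.75 ± 0.37, adjusted p = 0.00329). The members that fell were Cdkn1b, Lmnb1 (-1.81), whose loss accompanies senescence, Hmgb1 and Hmgb2 (-1.34), a chromatin gene of dividing cells. Of the apoptosis, Fas and TRAIL genes 24 of 45 tested members rose (14 to 28, with 14 without WT PBS mouse 160) and 2 fell (1 to 4, with 1 without WT PBS mouse 159 and WT BLM mice 146 or 147, 4 without KO PBS mouse 136), Casp2 (-0.67) and Gsdma3 (-1.75). Fas was at 3.62, 4.44 and 4.31 against 10.7, 11.4 and 11.03 CPM (1.42 ± 0.26, adjusted p = 0.0066). Its ligand Fasl was under 1 CPM in all 6 mice, at 0, 0.0987 and 0.0764 against 0.352, 0.359 and 0.2297 CPM, and lost its call without any 1 of the WT mice.

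Lipid genes of the skin glands fell in part. Of the sebaceous list 5 of 24 tested members fell (4 to 11, with 11 without KO PBS mouse 136) and 1 rose (1 to 1), Gal, whose product galanin is a neuropeptide. That was 20.8% lower, beside 14.1% of all genes, and 4.17% higher, beside 19.8%. Scd1, the main desaturase of sebum, was at 1008, 1138 and 1247 CPM in the WT PBS mice and 649, 1619 and 1069 CPM in the WT BLM mice (adjusted p = 0.967), overlapping between groups. Mc5r, the melanocortin receptor of sebocytes, was at 29.7, 31.8 and 31.2 against 3.17, 6.52 and 2.46 CPM (-2.93 ± 0.49, adjusted p = 0.00516), Elovl3 was at 71.95, 57.997 and 62.97 against 8.3002, 17.7 and 20.4 CPM (-2.06 ± 0.31, adjusted p = 0.00431), and the others that fell were Awat2, Soat1 and Fads2. In cholesterol synthesis 14 of 25 tested members fell (8 to 16, with 8 without WT PBS mice 159 or 161 and WT BLM mice 145 or 146) and none rose (0 to 1, with 1 without KO BLM mouse 141), with a median of -0.58. Hmgcs1 was at 286, 268 and 309 against 145, 117 and 155 CPM (-1.05 ± 0.16, adjusted p = 0.00431). In dermal adipocyte genes 2 of 30 tested members rose (0 to 4, with 0 without WT PBS mice 159 or 161, 1 without WT PBS mouse 160 and WT BLM mice 145 or 146 and KO PBS mouse 137 and KO BLM mice 141, 143 or 144, 4 without KO PBS mouse 136), Slc2a4 and Car3, and 2 fell (2 to 6, with 6 without WT BLM mouse 146), Acaca and Acly, which also serve other cells. The share was 6.67% in each direction, below the shares of all genes. Adipoq (adiponectin) was at 51.3, 71.1 and 75.02 against 32.4, 197 and 58.3 CPM (adjusted p = 0.559), with WT BLM mouse 146 far above the other 5.

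Skeletal muscle genes rose in nearly every member: 37 of 38 tested members rose (32 to 37) and none fell, with a median of 2.65. The list made up 0.891 to 1.08 in the WT PBS mice and 3.34 to 6.68 in the WT BLM mice, in percent of counts, mouse 145 being highest. Mouse skin has a thin muscle sheet under the dermis, and how much of it was taken with each piece is not given in the sources used here. Acta1, the actin of mature fibres, was at 1738, 1567 and 1602 CPM in the WT PBS mice and 13202, 9370.1 and 6598 CPM in the WT BLM mice (2.57 ± 0.51, adjusted p = 0.00797), and Ckm rose with it (2.24 ± 0.51, adjusted p = 0.0118). Genes of fibres in repair and the slow-fibre gene Tnnc1 rose much further. Embryonic myosin Myh3 was at 7.37, 1.28 and 0.382 against 667, 179 and 440.0 CPM (7.16 ± 1.18, adjusted p = 0.00487). Tnnc1 was at 1.12, 0.526 and 0.306 against 99.8, 42.4 and 75.9 CPM (6.82 ± 0.92, adjusted p = 0.00329), and the fusion factor Mymk was at 1.35, 0.263 and 0.255 against 75.6, 36.3 and 63.4 CPM (6.57 ± 0.84, adjusted p = 0.00314). Myog, a factor of differentiating myoblasts, was at 3.48, 1.78 and 1.17 against 133, 48.8 and 85.2 CPM (5.38 ± 0.77, adjusted p = 0.00397), and Chrna1, a denervation-responsive subunit of the muscle acetylcholine receptor, was at 3.55, 1.91 and 1.503 against 107, 45.3 and 61.2 CPM (4.94 ± 0.68, adjusted p = 0.00355). WT BLM mouse 145 was the highest of all 6 in each of these genes except Ckm.

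Endothelial and pericyte genes rose in part: 21 of 36 tested members rose (5 to 25, with 5 without WT PBS mouse 160, 6 without WT PBS mouse 159, 7 without WT PBS mouse 161, 8 without WT BLM mouse 146, 11 without WT BLM mouse 147) and none fell, with a median of 1.03. Pecam1 was at 50.6, 49.6 and 44.05 CPM in the WT PBS mice and 62.6, 161 and 115 CPM in the WT BLM mice (1.23 ± 0.33, adjusted p = 0.0215), and Cdh5 was at 36.1, 37.96 and 35.9 against 44.4, 118 and 72.3 CPM (1.097 ± 0.32, adjusted p = 0.0277). WT BLM mouse 145 was only just above the WT PBS mice for both, and both lost their call without any 1 WT PBS mouse or without WT BLM mouse 146 or 147. Selp and Apln, markers of activated vessels, were firmer, but they were named for their small p among called members, and Pecam1 and Cdh5 whatever their result. Selp (P-selectin) was at 3.62, 4.47 and 3.898 against 12.8, 18.7 and 23.8 CPM (2.203 ± 0.36, adjusted p = 0.00487), Apln, a tip cell peptide, was at 3.35, 3.22 and 2.17 against 19.3, 19.4 and 28.5 CPM (2.94 ± 0.39, adjusted p = 0.00329), and Vcam1 is given above. In the Schwann cell and nerve list 8 of 20 tested members rose (3 to 11, with 3 without WT PBS mice 160 or 161 and WT BLM mouse 146, 4 without WT PBS mouse 159) and none fell (0 to 1, with 1 without WT BLM mouse 145). Ncam1, also made by regenerating muscle, was at 11.3, 11.4 and 11.8 against 134, 82.004 and 86.5 CPM (3.12 ± 0.33, adjusted p = 0.00227), and Gap43 of growing axons was at 1.15, 0.855 and 0.637 against 4.46, 7.695 and 4.397 CPM (2.65 ± 0.54, adjusted p = 0.0086). Of red cell genes 3 of 8 tested members fell (0 to 3, with 0 without WT BLM mice 145 or 147, 1 without WT PBS mice 160 or 161) and none rose (0 to 1, with 1 without WT PBS mouse 161 and KO PBS mouse 136). They were Slc4a1, Alas2 and Bpgm, while haemoglobin Hba-a1 was at 5.75, 19.6 and 13.7 against 7.95, 16.1 and 7.35 CPM (adjusted p = 0.668). In the circadian clock 9 of 19 tested members rose (2 to 12, with 2 without WT PBS mouse 159, 3 without WT PBS mouse 160, 4 without WT PBS mouse 161, 5 without WT BLM mouse 145) and 1 fell (0 to 3, with 0 without any 1 of the WT mice, 3 without KO PBS mouse 136), Nfil3 (-1.85). Per3 was at 41.4, 54.2 and 35.6 against 116, 98.7 and 81.6 CPM (1.18 ± 0.25, adjusted p = 0.00996), and Arntl (Bmal1) was at 22.4, 20.2 and 22.3 against 18.1, 12.6 and 15.3 CPM (adjusted p = 0.0618). Harvest times of day are not given in the sources used here.

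**Figure D4:**
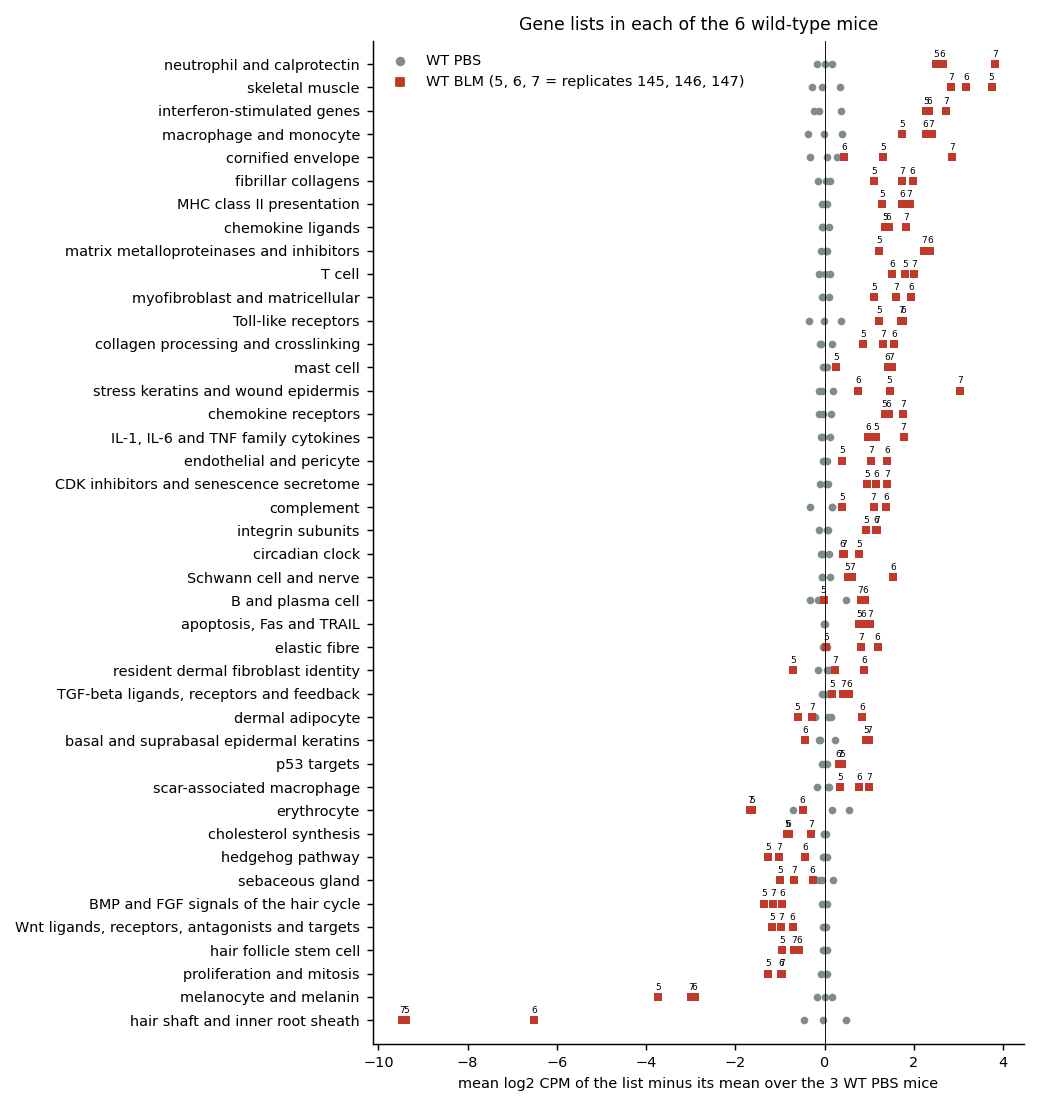
Mean log2 CPM of each of the 42 lists (rows) in each WT PBS mouse (grey circles) and WT BLM mouse (red squares, 5, 6 and 7 for mice 145, 146 and 147), minus the mean of the 3 WT PBS mice (x axis). The WT BLM mice split widest in the hair, cornified envelope and stress keratin rows.

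The 3 WT BLM mice were not alike in what they raised most, as the plot of lists by mouse shows. Mouse 145 had the most muscle, 6.68% of counts against 5.92 and 3.34%, and the least fibrillar collagen, 1.20% against 3.64 and 2.85%. It was also lowest for resident fibroblast, mast cell, endothelial and complement genes. Mouse 146 led in fibrillar collagen, nerve and adipocyte genes and kept the most hair transcript. Mouse 147 led in the neutrophil and calprotectin list, 0.127% of counts against 0.0342 and 0.0299%, in the stress keratin list, which shares members with it, and in the cornified envelope. Interferon-stimulated genes were at a mean log2 CPM of 5.11, 5.18 and 5.55 in mice 145, 146 and 147.

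The mice labelled Thy-1–KO, which share no animal with this comparison, give the same lists at other combinations of treatment and hair. KO PBS mouse 136, with abundant hair transcripts, had a mean log2 CPM of 2.58 for interferon-stimulated genes and 3.57 for macrophage genes, just below the WT PBS range. KO PBS mice 137 and 139, with little hair and no bleomycin, were at 4.78 and 3.92 for the first list and 5.57 and 5.17 for the second, between the WT PBS and WT BLM ranges. Skeletal muscle took 1.08% of counts in mouse 136 and 4.92 and 4.18% in mice 137 and 139. Proliferation genes were at 5.18 in mouse 136 and at 4.23 and 3.74 in mice 137 and 139. The neutrophil and calprotectin list was different in the KO PBS mice. All 3 of them, at -0.45, 0.24 and -0.07, lay close to the WT PBS range of -0.30 to 0.05, and the WT BLM mice were at 2.39 to 3.70. The KO BLM mice were unlike one another, from 1.05 to 3.55 with a median of 3.26. In KO BLM mouse 141, which had the most hair transcript of these 3, S100a9 had 89 counts and Stfa1 35. In KO BLM mice 143 and 144 S100a9 had 4652 and 4734 counts and Stfa1 1665 and 2136. Fibrillar collagens were at a mean log2 CPM of 5.65 in mouse 136, and at 6.52 and 6.50 in mice 137 and 139, above the WT PBS range (5.90 to 6.16) and below the WT BLM range (7.16 to 8.01). As a share of counts the same list made up 0.486, 1.80 and 1.38% in the 3 KO PBS mice, so that mice 137 and 139 lay above WT BLM mouse 145 (1.20%). Col1a1 was at 1559.9, 5054 and 3565 CPM in the KO PBS mice and 2905, 8835 and 8828 CPM in the KO BLM mice, and Col3a1 was at 1495, 5322 and 4702 CPM in the KO PBS mice and 2523, 6387 and 6096 CPM in the KO BLM mice. KO PBS mouse 137 was above WT BLM mouse 145 for both genes and mouse 139 for Col3a1. Myofibroblast genes, at 4.71, 5.14 and 5.49, stayed under the lowest WT BLM mouse (6.11).

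**Figure D5:**
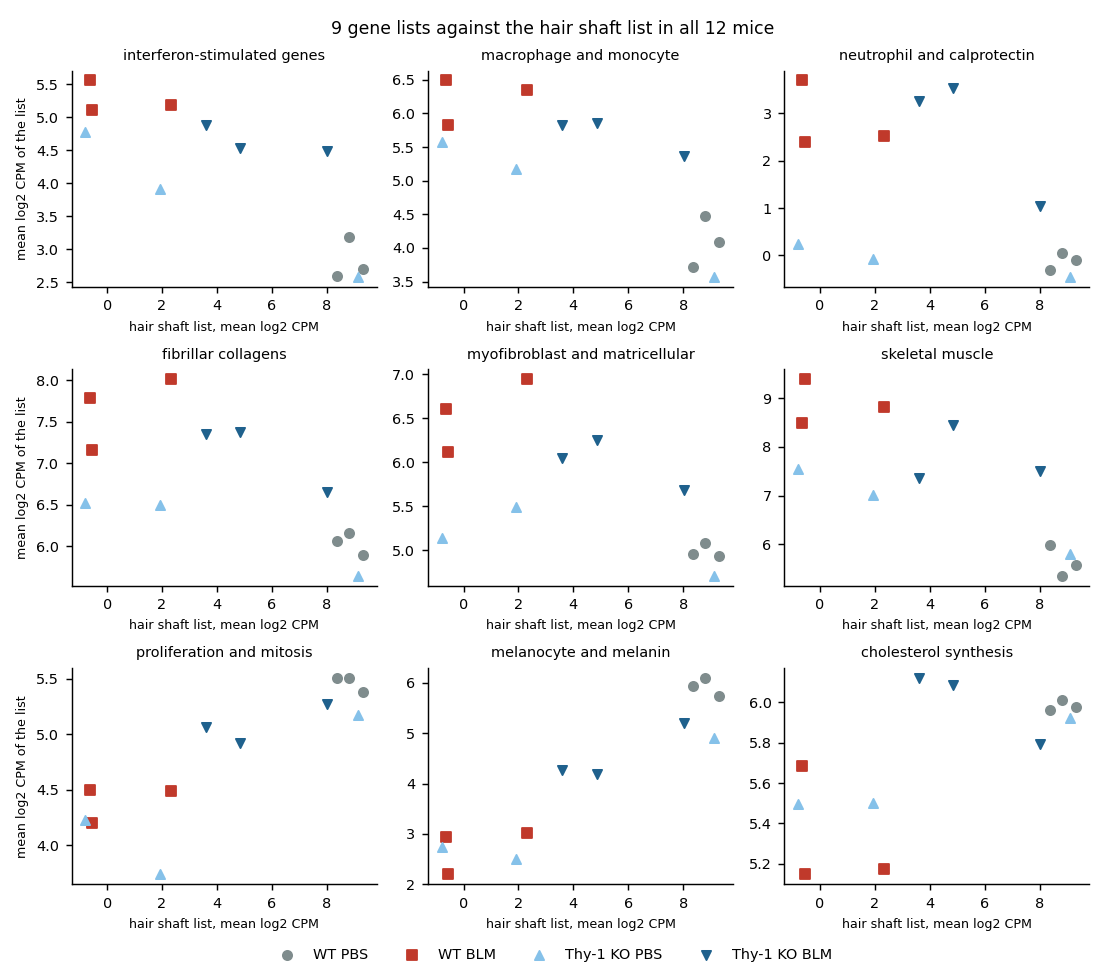
Mean log2 CPM of 9 lists (y axes) against that of the hair shaft and inner root sheath list (x axes) in all 12 mice, with grey circles for WT PBS, red squares for WT BLM, light triangles for libraries labelled Thy-1–KO PBS and dark triangles for those labelled Thy-1–KO BLM. WT PBS mice sit at the right and WT BLM mice at the left of every panel, and the 2 KO PBS mice at the left lie near the WT PBS mice for neutrophil genes and near the WT BLM mice for melanocyte genes.

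The contrast of BLM with PBS in mice labelled Thy-1–KO called 56 genes (0.306%), and none of the 18311 differences between the WT and KO responses passed (smallest adjusted p = 0.0604, with 5687 genes, 31.1%, under an unadjusted p of 0.05). Of the 3633 genes that rose in WT mice 34 were called in KO mice, where their median log2 fold change was 0.28, and of the 2589 that fell 5 were called, with a median of -0.09. Fold changes in the 2 genotypes are set side by side here for a few genes. Timp1 had 4.15 in WT and 3.3005 in KO mice, Cdkn2a 6.43 and 4.88, Spp1 5.101 and 3.83, and Myh3 7.16 and 6.99. In KO mice Timp1 was at 2.66, 6.63 and 4.98 CPM in the KO PBS mice and 24.03, 45.2 and 71.6 CPM in the KO BLM mice. Acta1 (-0.02), Csf1r (-0.04), Lef1 (0.098) and Lss (-0.05) had KO log2 fold changes near 0. In Acta1, Csf1r, Lef1, Lss and Spp1 KO PBS mouse 136 stood apart from mice 137 and 139, so their values average over unlike mice. Raw counts in mice 136, 137 and 139 were 33, 60 and 18 for Myh3, without that split, and only 4, 11 and 8 for Cdkn2a. Raw counts of Lef1 were 2810, 350 and 261 in the KO PBS mice and 2432, 790 and 565 in the KO BLM mice. Those of Acta1 were 53523, 229145 and 207209 against 116209, 115493 and 203419. None of these differences between genotypes passed edgeR's test with all 12 libraries, but over all genes DESeq2 called 3279 differences, and edgeR called 7470 without KO PBS mouse 136 and 0 to 5 without any 1 of the others.

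With the hair shaft list's mean log2 CPM added to the 12-library fit as a covariate, 14 genes were called for WT BLM against WT PBS (1730 at an unadjusted p under 0.05), 9 higher and 5 lower, and 11 of them were also called without it. Of the 243 genes chosen by rule 6 were among the called: Timp1, Vcam1, Col8a1, Xaf1 and Ly6c2, which rose, and Acot1, which fell. The covariate does not overlap between the WT groups.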

How the data were processed

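Skin RNA from 12 mice was measured by bulk RNA-Seq, and 6 WT mice are described here (3 PBS, 3 BLM). The authors prepared stranded mRNA libraries, sequenced read pairs and deposited raw counts per gene for all 12 libraries in 1 table. Their processing notes name the build GRCm38.p6 and MultiQC 1.7, and the aligner, the counting program, its annotation and its use of strand are not given in the sources used here. Counts of near-identical gene copies, overlapping genes and antisense genes are therefore uncertain.

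Groups came from the sample titles, in which each mouse has its own number. The labels do not name separate cultures or litters beyond this, so p-values measure the spread between these mice. Counts were analysed with edgeR 4.0.16 in R 4.3.3: filterByExpr (minimum count 10), TMM scaling, a quasi-likelihood fit of 4 group means over all 12 libraries (the authors also analysed all groups, with DESeq2) and the contrast WT BLM minus WT PBS, with Benjamini-Hochberg adjustment over 18311 genes at 0.05. SE is the log2 fold change divided by the square root of F. Log2 CPM used a prior count of 2. A floor of 3 counts per library set the bounds called "at least". In simulated data with 200 genes changed by 4-fold the fit of this contrast recovered 89.5% of them, with 11 false calls among 18311 genes. Whether these rates hold for the counts of the mice, in which 6222 genes were called, was not tested.

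The gene lists and genes described were chosen with earlier results of these data known, so their counts are descriptions, read beside the share of all genes called. Genes were named by rule: the 10 largest rises and the 10 largest falls among called genes with a mean log2 CPM of at least 1 and no overlap between groups, the 10 smallest p-values among the same, the first 2 genes and the 4 called members of smallest p of each list, Thy1, and 10 genes of interest to the study. Any other gene named, including members that make up a small count, was chosen after its values were seen. Some genes that the rule names are not reported here. Promoters are RefSeq's and gene positions GENCODE M21's, both on GRCm38. Alternatives were DESeq2 1.42.0, RLE and upper-quartile scaling, 2 other filters, the 6 WT libraries alone, a hair covariate and leaving out each mouse. Figures used matplotlib.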

Additional observations from a re-analysis of the deposited data

How the results depend on the processing

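No paired analysis was possible because every mouse has its own number and no number is shared between groups. The number of genes called in WT mice ran from 5362 to 7803 over RLE and upper-quartile scaling, no filter, a mean of at least 1 CPM, DESeq2 and the 6 WT libraries alone, each within 1.5 times of 6222, and these scalings moved the median of all genes by less than 0.1. Leaving out 1 of the 12 mice gave 2615 to 8565 calls, 1565 to 4515 higher and 836 to 4050 lower. The highest of each came without KO PBS mouse 136, the only KO PBS mouse with a high level of hair transcripts. With the 6 WT libraries alone, leaving out 1 mouse (a choice made after seeing the data) gave 5412 to 7938.

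The hair covariate left 14 calls, 9 higher and 5 lower. Of the 211 named genes called without it, 197 lost their call in the same direction, and 8 turned direction without a call: Bpgm (0.091), Cd3e (-0.17), Krt31 (0.17), Krtap14 (0.11), Krtap15 (0.063), Krtap19-9a (2.56), Sprr2d (-0.63) and Sprr2e (-1.86). Among named genes called in neither fit, Krt71 (1.84), Fgf5 (1.7996), Krt10 (-0.54), Lor (-0.62) and Gpnmb (0.45) were among those that turned. The cause was not tested. The difference between WT and KO responses, with 0 calls by edgeR, had 3279 by DESeq2 and 0 to 7470 when 1 mouse was left out, the highest again without KO PBS mouse 136. Of the 211 named genes called, 158 were called in all 12 fits without 1 mouse. With 3 mice a group, and at the present depth, genes under about 1 CPM rest on few counts.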
